A study of Arabidopsis thaliana with 28 samples.

Results

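Histone H3 lysine 9 acetylation (H3K9ac) in libraries made from 1 mg of seedling tissue was compared with H3K9ac in PHILO libraries of the largest labelled depth, 10M reads, with 2 replicates in each group. The members are these 4 of the 28 libraries of the series, chosen by their sample titles, and the domains called in them on chromosomes 1 to 5. All 4 libraries came from untreated whole seedlings of Arabidopsis thaliana Col-0, 10 days old, which were fixed with formaldehyde, ground, sonicated and precipitated with the same anti-H3K9ac antibody. PHILO is a ChIP-seq procedure for plants in which many small samples are handled in parallel. The labels give the tissue weight of the 1 mg group, an amount below that of a single seedling, and the depth of the 10M group but not its tissue weight. The study calls the 1 mg replicates biological and the libraries of the depth series independently processed, and the labels do not say how many plants entered a library, when the plants were collected or which libraries were prepared together, so preparation batch and group cannot be told apart.

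H3K9ac is laid down by histone acetyltransferases and removed by histone deacetylases, and it marks the first nucleosomes of genes that are being transcribed. In plants the mark begins close to the transcription start and fades along the gene body, and genes that are strongly induced can carry it over most of their length. Jasmonate is a wound hormone of plants. In its absence JAZ proteins hold back MYC2 and related transcription factors with the help of deacetylases, and the loss of JAZ proteins lets MYC2 recruit acetyltransferases to its target genes, the JAZ genes among them. The circadian clock of Arabidopsis is a loop in which morning genes (CCA1, RVE8, PRR9, PRR7) and evening genes (PRR5, TOC1, GI, LUX) take turns. Their acetylation is known to follow their daily transcription.

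The authors called domains, which are runs of enriched 200 bp windows, in each library on its own against a common IgG control. Domains of the 4 libraries that overlapped by at least 1 bp were joined into 14843 merged regions. A domain of every library was present in 13231 of them (89.1%), and these regions could be compared by their read counts. A further 121 regions (0.815%) had a domain in both 1 mg libraries and in neither 10M library, and 578 (3.89%) had a domain in both 10M libraries and in neither 1 mg library. The remaining 913 regions showed other combinations. The 1 mg libraries held 13934 and 14486 domains, against 15181 and 15238 in the 10M libraries. These fewer domains covered 21.2 and 21.0 Mb in the 1 mg libraries and 20.1 and 20.3 Mb in the 10M libraries, with a mean width of 1521 and 1447 bp against 1322 and 1331 bp. For each of these measures the groups did not overlap, and the exact two-sided permutation test gave p = 0.33, the smallest value that 2 against 2 libraries allow.

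The ChIP reads inside domains numbered 4452368 and 4200396 in the 1 mg libraries and 6712157 and 7244177 in the 10M libraries. The depth recovered from the deposited values was 72.2% and 63.4% of the 10M mean in the 1 mg libraries and 94.9% and 105% in the 10M libraries. Pooled enrichment, the ChIP over the IgG reads of all domains after division by library size, was 3.7 and 4.02 in the 1 mg libraries and 4.49 and 4.33 in the 10M libraries. The labelled tissue was checked at marker genes. All 49 listed genes of the photosynthetic light reactions overlapped a domain, whereas none of 12 seed genes and none of 6 floral organ genes did. Of 18 root markers and 14 shoot markers, 14 and 7 overlapped no domain in any of the 4 libraries, among them the root genes WOX5 and CASP1 and the shoot genes WUS and CLV3. In whole seedlings, fewer cells of a type and less acetylation per cell cannot be told apart.

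The counts of the 13231 shared regions were tested with the quasi-likelihood test of edgeR, and a region is referred to as called when the Benjamini-Hochberg adjusted p-value over all of them was under 0.05. Of these regions 3624 (27.4%) were called, 1478 (11.2%) of them higher and 2146 (16.2%) lower in the 1 mg libraries. The size of the log2 fold change of called regions, taken without sign, had a median of 0.46. The counts are those of reads inside called domains, and the called length moved with the calls. It was longer in both 1 mg libraries than in both 10M libraries in 1852 regions (14.0%) and shorter in 1060 (8.01%). Among the regions called higher, 980 (66.3%) had a longer domain in both 1 mg libraries, and among those called lower 726 (33.8%) had a shorter one. When the called length of each library was included as an offset, 12 regions were called higher and 94 lower. A second test was restricted to the 5898 well-covered regions, in which the domains of every library filled at least 80% of the merged region. In that test 2031 regions (34.4%) were called, 787 (13.3%) higher and 1244 (21.1%) lower. DESeq2 called 936 of these regions, 220 higher and 716 lower. In all shared regions, leaving out 10M replicate 1 or 10M replicate 2 gave 2160 and 2088 calls. The replicates agreed closely in well-covered regions. There the variance of the counts between replicates was 1.08 times that of random sampling in the 1 mg pair and 0.984 times in the 10M pair, whereas between libraries of different groups it was 5.86 to 6.19 times. Over all shared regions it was 2.32 times in the 1 mg pair, 1.81 times in the 10M pair and at least 11.9 times between groups. The p-values measure the spread between these libraries, which may be technical and in well-covered regions was close to counting error, and reads were counted without molecular identifiers. The share of higher among called regions depended on the scaling. It was 40.8% in all shared regions and 38.7% in the well-covered ones with TMM scaling, against 21.8% and 7.36% with library sizes taken from the deposited fold change, which moved the median log2 fold change of all regions to -0.09 and -0.11, against 0.01 in both with TMM. Summed counts as library size raised the share in the well-covered regions to 54.3%.

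Genes of jasmonate synthesis and signalling had higher counts in the 1 mg libraries wherever their start lay in a shared region. Of the 24 genes on the list, 17 had their start in a shared region. They lay in 15 regions, and all 15 were called higher in the 1 mg libraries, against 11.2% of all shared regions. Their median log2 fold change was 0.74, with a range of 0.27 to 1.54, beside 0.01 over all regions. Domains were longer in both 1 mg libraries in 14 of the 15 regions, against 14.0% of all regions. Most of the 15 regions were wider than 3000 bp. Among all shared regions of that width, 33.6% were called higher, and 39.0% had longer domains in both 1 mg libraries. None of the 15 jasmonate regions was well covered. At least 50% of the merged length was covered in every library in 7 of the 15. All 7 were called higher in a test of such regions, with a median of 0.60, beside 1435 of all 12050 regions in that test. With the offset for called length, the median was 0.05, 0 of the 15 were called higher and 3 were called lower, so the higher counts went together with the longer domains. Of all 13231 shared regions, 12 were called higher and 94 lower with this offset.

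Allene oxide cyclase, an enzyme of jasmonate synthesis, is encoded by the tandem genes AOC1, AOC2 and AOC3, which shared the merged region chr3:9402801-9411200. This region held 360 and 365 CPM (read counts scaled to the TMM-normalised library size) in the 1 mg libraries and 168 and 158 CPM in the 10M libraries. Its log2 fold change was 1.16 ± 0.05 (SE, n = 2 libraries each, edgeR adjusted p = 2.75e-06). Domains filled 8400 and 7800 bp of it in the 1 mg libraries, against 3400 and 3200 bp in the 10M libraries, and its reads were not assigned to single AOC genes. JAZ10, a repressor of jasmonate signalling (chr5:4216201-4223000), had 330 and 347 CPM in the 1 mg libraries and 156 and 149 CPM in the 10M libraries, a log2 fold change of 1.15 ± 0.05 (SE, edgeR adjusted p = 2.75e-06). JAZ9 (chr1:26653801-26658800) had 234 and 222 CPM in the 1 mg libraries and 89.5 and 94.8 CPM in the 10M libraries, and its domains extended over 5000 and 4200 bp in the 1 mg libraries and over 1800 and 2000 bp in the 10M libraries. MYC2, the transcription factor that the JAZ proteins repress, lay in a region of 13.6 kb with several other genes, where 657 and 675 CPM were counted in the 1 mg libraries and 397 and 392 CPM in the 10M libraries.

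JAZ7 showed the largest fold change of the list. It was singled out after its values were seen, as were OPR3, JAZ12 and JAZ8. The region chr2:14573001-14574400 held 76.8 and 72.6 CPM in the 1 mg libraries and 26.2 and 25.1 CPM in the 10M libraries, a log2 fold change of 1.54 ± 0.10 (SE, edgeR adjusted p = 1.3e-05). Its domains measured 1400 and 1200 bp in the 1 mg libraries and 600 bp in both 10M libraries. OPR3, which encodes a peroxisomal reductase of jasmonate synthesis, had 176 and 163 CPM in the 1 mg libraries, against 71.9 and 68.1 CPM in the 10M libraries. At JAZ12, the member with the smallest change, the values were 140 and 143 CPM in the 1 mg libraries and 119 and 115 CPM in the 10M libraries. JAZ8 had a domain over its start in both 1 mg libraries, with 237 and 216 reads, and in neither 10M library. Of the other 6 genes of the list, JAZ3, JAZ11 and ORA59 had a shared domain inside the gene only, where JAZ3 was called higher and the other two were not called. VSP2 had a domain in 1 mg replicate 2 alone, and JAZ4 and VSP1 had none.

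Among 23 rapid stress genes, which respond to touch, wounding or elicitors within minutes, 18 had their start in a shared region. Of these regions 10 were called higher and 3 lower in the 1 mg libraries, with a median log2 fold change of 0.29, beside 11.2% higher and 16.2% lower over all shared regions. When any overlap with the gene was counted, 10 of 23 regions were higher and 6 lower, with a median of 0.09, since CBF3 (-1.15), ERF5 (-0.42) and ERF6 (-0.36) were lower inside the gene. The transcription factor gene WRKY18 had the largest change of the list, with 344 and 362 CPM in the 1 mg libraries and 102 and 91.4 CPM in the 10M libraries. Its log2 fold change was 1.87 ± 0.06 (SE, edgeR adjusted p = 6.51e-07), and its domains filled 7600 and 7400 bp in the 1 mg libraries, against 2200 and 1800 bp in the 10M libraries. ERF11, SZF1 and WRKY40 were also called higher, with log2 fold changes of 0.92, 0.57 and 0.53. The regions of WRKY18, ERF11, SZF1 and WRKY40 spanned 8400, 12600, 7600 and 11000 bp, and their reads were not assigned to single genes. The 3 members lower at the start were MYB51 (-0.39), CBF1 (-0.31) and MPK3 (-0.16), and DESeq2 called 1 of the 18 regions lower. Domains were longer in both 1 mg libraries in 11 of the 18 regions and shorter in 0, against 14.0% and 8.01% of all shared regions. Most of the 18 regions were wider than 3000 bp. Among all shared regions of that width, 33.6% were called higher and 25.9% lower, and 39.0% had longer domains in both 1 mg libraries. With the offset for called length, 0 of the 18 were called higher and 1 lower, beside 12 and 94 of all 13231.

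**Figure D1:**
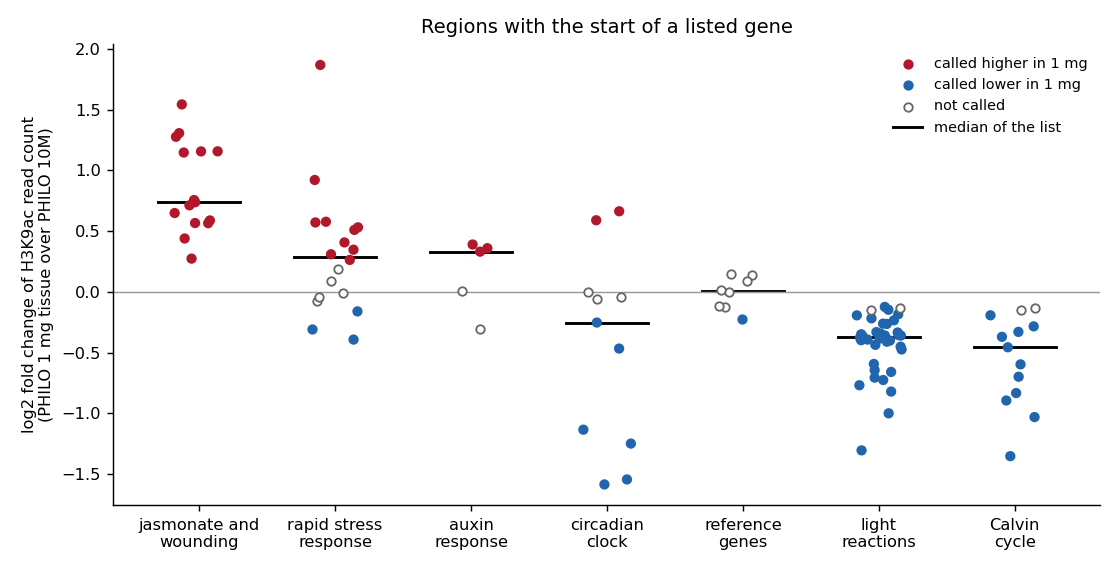
Each point is a merged region with a domain in all 4 libraries that holds the start of a listed gene; the y axis gives the log2 fold change of its H3K9ac read count, 1 mg tissue over 10M, with filled points called (edgeR adjusted p-value under 0.05) and a bar at the median. All 15 jasmonate regions lie above 0 and all 36 light-reaction and 13 Calvin cycle regions lie below it, whereas 7 of 8 reference gene regions were not called.

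Nuclear genes of photosynthesis had lower counts in the 1 mg libraries. The 39 light-reaction genes with a start in a shared region lay in 36 regions, of which 34 were called lower and 0 higher in the 1 mg libraries, against 16.2% of all shared regions called lower. The median log2 fold change was -0.37, with a range of -1.30 to -0.12. Well-covered regions numbered 17, and all 17 were called lower there, with a median of -0.34, against 21.1% of all well-covered regions. With the offset for called length the median was -0.32, beside -0.06 over all regions, and 0 of the 36 were called. DESeq2 called 28 of the 36 lower, beside 1581 of all 13231 shared regions.

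The tandem genes LHCB1.1, LHCB1.2 and LHCB1.3, which encode the major antenna protein of photosystem II, shared the region chr1:10472001-10479800. It held 126 and 103 CPM in the 1 mg libraries and 286 and 280 CPM in the 10M libraries, a log2 fold change of -1.30 ± 0.08 (SE, edgeR adjusted p = 8.79e-06). Domains filled 4200 and 3400 bp in the 1 mg libraries and 7600 and 7200 bp in the 10M libraries, and reads of these near-identical copies cannot be assigned with certainty to a single gene. LHCB5, a minor antenna protein, lay in a well-covered region (chr4:6406401-6410200) with 129 and 135 CPM in the 1 mg libraries and 216 and 214 CPM in the 10M libraries. Its log2 fold change was -0.69 among well-covered regions (edgeR adjusted p = 6.46e-19), so the lower count at this gene was present where all libraries were counted over nearly the same bases. LHCB3, also well covered, had 142 and 131 CPM in the 1 mg libraries and 212 and 215 CPM in the 10M libraries.

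The Calvin cycle, in which carbon dioxide is fixed, was represented by 14 genes in 13 regions. Of these, 11 were called lower and 0 higher in the 1 mg libraries, with a median log2 fold change of -0.46, against 16.2% of all shared regions called lower. All 5 well-covered regions were called lower, against 21.1% of all well-covered regions. With the offset for called length the median was -0.22 and 0 of the 13 were called. RBCS1B and RBCS2B, adjacent genes of the Rubisco small subunit, shared a region with 64.1 and 74.0 CPM in the 1 mg libraries and 193 and 159 CPM in the 10M libraries, a log2 fold change of -1.35 ± 0.11 (SE, edgeR adjusted p = 4.06e-05). RBCS1A, which lay alone in the well-covered region chr1:25045801-25049800, had 139 and 147 CPM in the 1 mg libraries, against 243 and 220 CPM in the 10M libraries. The plastid aldolase gene FBA2 and the phosphoribulokinase gene PRK had log2 fold changes of -0.89 and -1.03.

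The clock genes differed in both directions. Of 18 listed genes, 11 had their start in a shared region, and 2 of these regions were called higher and 6 lower in the 1 mg libraries, beside 11.2% higher and 16.2% lower over all shared regions. The lower ones were CCA1, PRR9, RVE8, RVE1, PRR7 and LNK1, genes known for transcript peaks between dawn and midday, and the higher ones were TOC1 and PRR5, known for later peaks. The evening gene FKF1 had a domain at its start in both 1 mg libraries and in neither 10M library, and PRR3 had such a domain inside the gene. The evening genes GI and LUX were not called, with log2 fold changes of -0.04 and 0.00. Domains of both 1 mg libraries were longer in 2 of the 11 regions and shorter in 6, against 14.0% and 8.01% of all shared regions. With the offset for called length, 0 of the 11 were called higher and 1 lower, beside 12 and 94 of all 13231. FKF1, PRR3, TOC1 and PRR5 were named after their values were seen.

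CCA1 (chr2:19243201-19247000) had 76.8 and 76.2 CPM in the 1 mg libraries and 169 and 167 CPM in the 10M libraries, a log2 fold change of -1.13 ± 0.06 (SE, edgeR adjusted p = 6.03e-06). PRR9 (chr2:19232601-19235200) had 48.9 and 50.6 CPM in the 1 mg libraries and 118 and 119 CPM in the 10M libraries. Its region was well covered, and the log2 fold change there was -1.23 ± 0.07 (SE, edgeR adjusted p = 1.81e-23). At RVE8 and RVE1 the 1 mg libraries held 22.9 and 22.4 CPM and 22.4 and 34.0 CPM, against 67.5 and 64.8 CPM and 87.8 and 80.8 CPM in the 10M libraries. In the opposite direction, TOC1 (chr5:24672601-24676400) had 137 and 133 CPM in the 1 mg libraries and 82.6 and 87.4 CPM in the 10M libraries, a log2 fold change of 0.66 ± 0.07 (SE, edgeR adjusted p = 1.28e-04). PRR5 (chr5:8354801-8360800) had 176 and 189 CPM in the 1 mg libraries, against 123 and 119 CPM in the 10M libraries. For each of these genes the groups did not overlap, which was also common elsewhere. Of 219 regions of genes with a ribosomal protein name, both 1 mg libraries lay above both 10M libraries in 43 and below them in 105. Of 109 regions with tRNA genes, they lay above in 39 and below in 31. The share over all shared regions is not given, so the lack of overlap at the clock genes is no separate result.

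**Figure D2:**
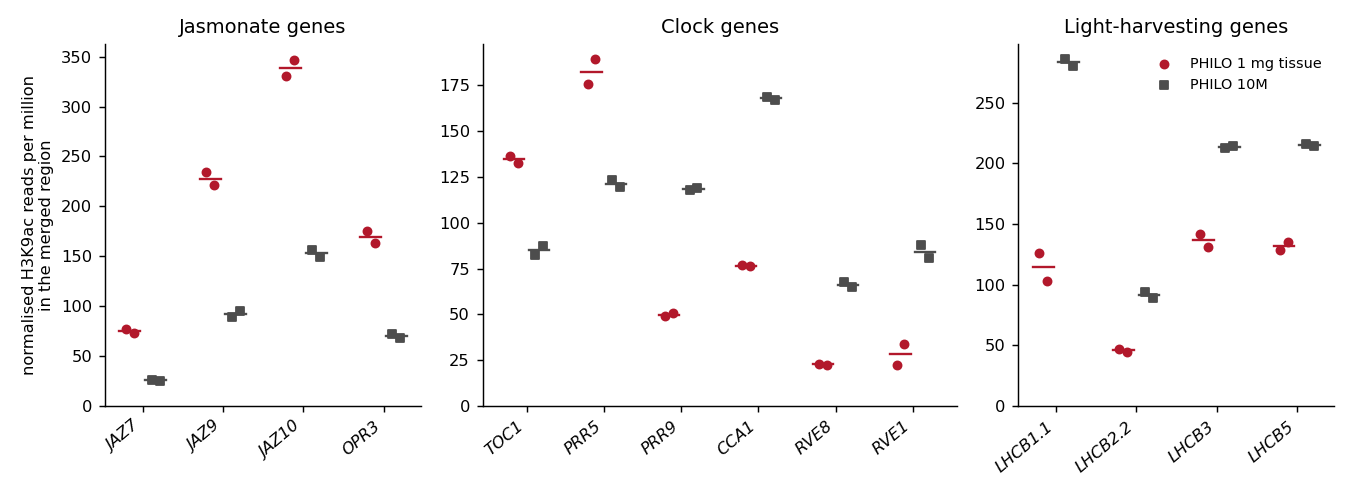
The y axes give the TMM-normalised H3K9ac read counts (CPM) in the merged region of each gene; circles are the 2 libraries from 1 mg of tissue, squares the 2 PHILO 10M libraries and bars their means, and LHCB1.1 shares its region with LHCB1.2 and LHCB1.3. The genes were chosen for small p-values or after their values were seen, so that the groups do not overlap in them is no separate result. The 1 mg libraries are higher at the jasmonate genes and at TOC1 and PRR5 and lower at the morning clock genes and the antenna genes.

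The sequences just before the starts of these genes are shown because the clock and jasmonate factors act through short motifs there. The 250 bases upstream of the annotated start were read from the TAIR10.1 assembly of RefSeq and searched on both strands for the G-box CACGTG, bound by MYC2 and by light and clock regulators, the evening element AAATATCT, bound by CCA1 and RVE8, and the I-box GATAAG, found in many light-regulated promoters. Capitals mark matches, no matches overlapped in the stretches printed, and each stretch is written 5′ to 3′ on the strand of its gene. The first pair belongs to clock genes with lower counts in the 1 mg libraries, PRR9 (chr2:19232357-19232606, plus strand) and CCA1 (chr2:19245341-19245590, plus strand).
PRR9: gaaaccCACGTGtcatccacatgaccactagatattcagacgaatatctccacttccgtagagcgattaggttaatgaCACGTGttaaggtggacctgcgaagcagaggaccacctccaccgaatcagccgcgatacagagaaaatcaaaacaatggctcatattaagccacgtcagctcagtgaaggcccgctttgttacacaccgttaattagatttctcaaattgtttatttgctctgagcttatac
CCA1: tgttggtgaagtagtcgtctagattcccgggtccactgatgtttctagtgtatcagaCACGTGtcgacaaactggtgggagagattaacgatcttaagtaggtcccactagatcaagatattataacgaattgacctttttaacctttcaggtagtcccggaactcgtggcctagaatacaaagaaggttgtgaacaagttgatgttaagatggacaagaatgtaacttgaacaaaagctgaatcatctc
The second pair belongs to clock genes with higher counts, TOC1 (chr5:24674713-24674962, plus strand) and PRR5 (chr5:8358547-8358796, minus strand).
TOC1: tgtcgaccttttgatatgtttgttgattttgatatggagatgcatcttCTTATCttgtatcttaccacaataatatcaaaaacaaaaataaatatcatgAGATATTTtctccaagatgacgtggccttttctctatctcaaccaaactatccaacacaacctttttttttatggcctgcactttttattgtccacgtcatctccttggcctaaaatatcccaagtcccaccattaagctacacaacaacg
PRR5: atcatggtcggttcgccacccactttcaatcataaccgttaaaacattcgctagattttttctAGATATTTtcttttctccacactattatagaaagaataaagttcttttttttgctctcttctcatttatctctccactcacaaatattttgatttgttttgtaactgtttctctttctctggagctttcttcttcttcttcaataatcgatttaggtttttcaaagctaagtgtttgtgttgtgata
The third pair belongs to JAZ7 (chr2:14572780-14573029, plus strand) and to AGP2 (chr2:9538964-9539213, minus strand), both with higher counts.
JAZ7: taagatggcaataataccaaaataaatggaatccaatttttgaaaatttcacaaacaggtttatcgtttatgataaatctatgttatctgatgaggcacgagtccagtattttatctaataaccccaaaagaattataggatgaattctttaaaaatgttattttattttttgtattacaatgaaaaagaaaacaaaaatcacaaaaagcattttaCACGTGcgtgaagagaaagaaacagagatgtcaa
AGP2: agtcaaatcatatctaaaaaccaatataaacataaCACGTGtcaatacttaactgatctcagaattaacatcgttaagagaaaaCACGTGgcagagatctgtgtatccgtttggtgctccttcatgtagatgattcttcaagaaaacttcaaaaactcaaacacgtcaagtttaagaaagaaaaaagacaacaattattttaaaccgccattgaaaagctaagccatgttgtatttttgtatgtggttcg

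G-boxes were found before genes of either direction, and the evening element before TOC1 and PRR5. Over all 27443 protein-coding genes, 6.49% of such windows held a G-box, 4.79% an evening element and 12.3% an I-box. A G-box was found before 6 of the 24 jasmonate genes, 6 of the 18 clock genes and 9 of the 49 light-reaction genes, and an I-box before 12 of the light-reaction genes and 8 of the jasmonate genes. An evening element was found before 5 of the clock genes and 3 of the jasmonate genes. Other lists held the motifs as well, with a G-box before 4 of 12 seed genes, which had no domain, and an evening element before 4 of 23 rapid stress genes and 3 of 14 cold and abscisic acid genes. These are matches of letters, and binding was not measured. The domains of both 1 mg libraries and of 10M replicate 2 covered the whole TOC1 window, and those of 10M replicate 1 did not enter it. At PRR5 the 1 mg domains covered all 250 bp of the window and the 10M domains 54 bp. At PRR9 the domains of all 4 libraries reached 6 bp into the window, and both G-boxes lay before the domains. At AGP2 all 4 libraries covered the window.

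The other lists stand beside 11.2% called higher and 16.2% called lower over all shared regions. Of the regions of 15 common reference genes, which serve for normalisation in expression studies, 8 held a gene start, 1 was called lower (GAPC2, -0.22) and 0 higher, with a median log2 fold change of 0.00. In the well-covered test UBQ11 was called higher (0.16), and inside the gene GAPC1 (-0.38) and TUB2 (-0.21) were called lower, with a median of -0.09 over 15 regions. Genes with the words ribosomal protein and no organelle in the product name lay in 219 regions, of which 17 were called higher and 39 lower, with a median of -0.09. This search by words also took in family names, such as that of AT1G54217. Of 82 regions with NLR immune receptor genes 13 were called higher and 26 lower. RPP4, a receptor for downy mildew, had 137 and 138 CPM in the 1 mg libraries and 261 and 263 CPM in the 10M libraries, whereas the NLR gene AT1G65850 had 96.0 and 85.1 CPM in the 1 mg libraries and 37.0 and 36.4 CPM in the 10M libraries, so single members of this family differed in opposite directions. Among auxin response genes 3 of 5 regions were called higher, led by that of IAA2 (log2 fold change 0.39). Among cold and abscisic acid genes 3 of 4 were called higher, led by RD29A (0.87), with ABI1, a phosphatase of abscisic acid signalling, called lower (-0.32). Heat shock genes were called in 1 of 4 regions, that of HSFB2A (0.20). The regions of IAA2 and HSFB2A spanned 15600 and 15000 bp, and their reads were not assigned to single genes. The single root marker with a shared domain at its start, SCR, and the single shoot marker, CA1, were both called lower, with log2 fold changes of -0.27 and -0.39. Regions with tRNA genes numbered 109, with 15 called higher and 16 lower, and those with pseudogenes or transposable element genes 152, with 23 called higher and 17 lower.

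Of 2814 well-covered regions with the start of a protein-coding gene, 463 were called higher and 496 lower in the well-covered test. Among the 2814, 545 were called in both tests with CPM that did not overlap between the groups, 184 higher and 361 lower in the 1 mg libraries. CPM values of the regions below were scaled to the reads of well-covered regions alone. The largest rise was at AGP2 (chr2:9538201-9539600), which encodes an arabinogalactan protein of the cell surface. It had 115 and 111 CPM in the 1 mg libraries and 50.9 and 56.0 CPM in the 10M libraries, a log2 fold change of 1.08 ± 0.10 (SE, edgeR adjusted p = 4.34e-14). Next came a region of 13.2 kb with AT5G49500, PFD3 and the transcription factor gene WRKY48, with 1341 and 1336 CPM in the 1 mg libraries and 712 and 748 CPM in the 10M libraries. CSLD2 and IRX14-L, which encode glycosyltransferases of cell wall polysaccharides, had log2 fold changes of 0.58 and 0.64. HEMD, an enzyme of tetrapyrrole synthesis, and the vacuolar sugar transporter gene ERDL6, which shares its region with AT1G75230, had values of 0.65 and 0.56. The other 4 of the 10 highest regions held AT1G36622, AT5G64450, AT1G54217 and the cluster of AT3G60286, AT3G60290 and AT3G60300, with log2 fold changes between 0.62 and 0.72.

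The largest decrease among well-covered regions was at CYP71B12, a cytochrome P450 gene (chr5:8668201-8670200), with 78.9 and 76.1 CPM in the 1 mg libraries and 180 and 186 CPM in the 10M libraries, a log2 fold change of -1.24 ± 0.09 (SE, edgeR adjusted p = 1.2e-19). PRR9 followed. GLK2, a transcription factor that switches on photosynthesis genes (chr5:17798201-17800800), had 195 CPM in both 1 mg libraries, against 323 and 334 CPM in the 10M libraries. GUN4, an activator of chlorophyll synthesis that shares its region with GCN2, had 150 and 174 CPM in the 1 mg libraries and 268 and 283 CPM in the 10M libraries. OHP, a one-helix protein of the thylakoid, and HCEF1, the plastid fructose bisphosphatase, had log2 fold changes of -0.78 and -0.82. The remaining regions held AT1G72910, AT2G40600, the pair AT1G64490 and AT1G64500, and AT5G51010, with values between -1.15 and -0.81. Without 1 mg replicate 1, AT1G54217 was the single region of these 20 that was no longer called (log2 fold change 0.39, edgeR adjusted p = 0.114). With the offset for called length in the test of all shared regions, the 20 kept their direction and 6 were called. These were CYP71B12, PRR9, AT1G72910, AT2G40600, the region of AT1G64490 and AT1G64500 and that of WRKY48.

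Position in the gene and base composition went along with the direction. Of 7269 shared regions with the start of a protein-coding gene, 1089 were called higher and 1049 lower in the 1 mg libraries. Of 5666 regions inside a gene without its start, 355 were called higher and 1063 lower. Regions over 3000 bp were called most often, with 546 (33.6%) higher and 420 (25.9%) lower of 1624, whereas of the 378 well-covered ones 80 were higher and 171 lower. When regions were divided into 4 classes by GC content, 693 (20.9%) were called higher and 445 (13.4%) lower in the class of lowest GC, whereas in the highest 160 (4.85%) were higher and 660 (20.0%) lower. In well-covered regions the lowest class had 204 higher and 182 lower of 1133, and the highest 158 higher and 483 lower of 1882. Over all well-covered regions 13.3% were called higher and 21.1% lower. With an offset for a GC trend in each library the number of calls was 3569, and 3275 of them were also called without it.

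The outer borders of domains were compared in 3705 regions with 1 gene start and 1 domain in each library. The upstream border lay on average at -154 and -133 bp from the start in the 1 mg libraries and at -76.5 and -80.3 bp in the 10M libraries, where negative values lie before the start. The downstream border lay at 1076 and 1067 bp in the 1 mg libraries and at 1028 and 1038 bp in the 10M libraries. The medians were closer, at -45 and -38 bp against -33 and -34 bp upstream and at 940 and 937 bp against 911 and 919 bp downstream. Borders fall on windows of 200 bp, which is more than the differences between these averages.

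Regions found in 1 group only differed in position. Of the 121 regions with a domain in both 1 mg libraries and neither 10M library, 47 (38.8%) held the start of a protein-coding gene, 37 (30.6%) lay inside a gene without its start and 33 (27.3%) lay outside annotated genes. Of the 578 regions with the opposite pattern, 87 (15.1%) held a start, 446 (77.2%) lay inside a gene and 18 (3.11%) lay outside annotated genes. In the 13231 shared regions the shares were 54.9%, 42.8% and 0.446%. The regions of the 1 mg libraries had a median width of 1600 bp and a median GC content of 33.7%, against 800 bp and 39.9% for those of the 10M libraries. No test was made, since presence of the domain was the rule by which these regions were chosen. The median of the mean ChIP count was 132 reads for the 1 mg regions and 133 reads for the 10M regions. These reads come from libraries of different depth and from regions of different width. On the log2 scale over IgG the median was 1.06 for the 1 mg regions and 1.33 for the 10M regions. Without 1 mg replicate 1 the rule gave 235 regions of the 1 mg library, and without 1 mg replicate 2 it gave 942 regions of the 10M libraries.

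**Figure D3:**
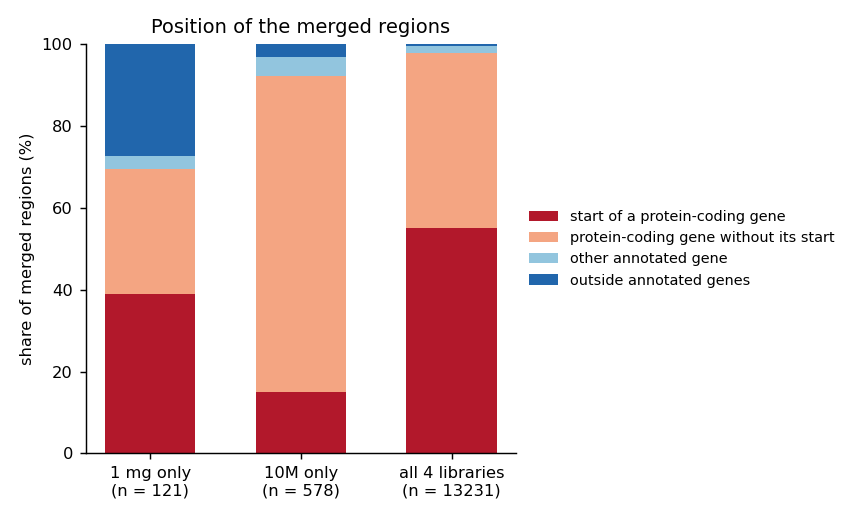
Stacked bars give the share of merged regions (y axis, in percent) by position in the gene annotation, for the 121 regions of both 1 mg libraries only, the 578 regions of both 10M libraries only and the 13231 regions with a domain in all 4 libraries. Regions outside annotated genes make up 27.3% of the first bar and 3.11% of the second, and regions inside a gene without its start make up 30.6% and 77.2%.

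The region with most reads among those of the 1 mg libraries covered the starts of AT4G29930, which encodes a bHLH transcription factor, and PRHA, a homeodomain gene named for its response to pathogens (chr4:14643001-14648800). It held 762 and 754 reads in the 1 mg libraries, 1.32 and 1.41 on the log2 scale over IgG. The 2 regions next in rank lay between genes, at chr1:8984001-8991400, 308 bp from AT1G25570, with 738 and 468 reads, and at chr1:22876801-22881600, 576 bp from AT1G61900, with 606 and 561 reads. A further one, at chr1:10956801-10959800, lay 1108 bp from DIS2. Among the genes, LRX2, which shapes the wall of root hairs, had 554 and 411 reads, the jasmonate-regulated gene JRG21 had 442 and 481 reads inside the gene and ACS8, an ethylene synthesis gene, had 392 and 319 reads over its start. MYB108, AT1G62420 and AT5G38700 completed the 10 with the most reads. AGO6, an Argonaute gene of RNA-directed DNA methylation, had 107 and 173 reads in a region of 3000 bp inside the gene. Among the listed genes, JAZ8, FKF1, PRR3 and the auxin response gene IAA6 lay in such regions.

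Among the regions of the 10M libraries, the most reads were found inside AT1G60590, a pectin lyase-like gene (chr1:22314401-22317000), with 562 and 651 reads in the 10M libraries. CYP707A2, which encodes an abscisic acid hydroxylase, followed with 607 and 566 reads over a stretch of 4600 bp. Further genes of hormone metabolism or response were BR6OX2, a brassinosteroid oxidase gene with 522 and 509 reads, and SAUR20, an auxin response gene which shares its region with the SAUR gene AT5G18030 and had 476 and 566 reads. GAPCP-1 with AT1G79520, the pair CYSD2 and DES1, the cellulose synthase-like gene CSLB04, the methionine gamma-lyase gene MGL, AT1G10640 and AT3G28770 were the others of the 10 with the most reads. AT3G28770 was at 0.24 and 0.27 on the log2 scale over IgG and had a domain in 1 other library of the series. Among regions in other annotated genes, a region of 1400 bp included the precursor of the microRNA MIR165a, with 206 and 196 reads. The shoot markers KAT1, FIL and PDF1 and the clock gene LNK2 lay in regions of this class with a part of the gene body.

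Presence in the other 24 libraries was not used to choose these regions. Among them are libraries made by eChIP, another ChIP procedure for plants, by CUT&Tag, in which a tethered transposase cuts at the mark, and by PHILO from counted nuclei. According to the study, each library of the depth series was processed independently. Each of the 121 regions of the 1 mg libraries had a domain in at least 1 of them, with a median of 7 libraries. The share with a domain was 88.4% and 80.2% in the eChIP libraries, 66.9% and 69.4% in those from 500K nuclei, 72.7% and 71.9% in those from 100K nuclei and 75.2% and 82.6% in those made by CUT&Tag. It was 22.3% and 28.1% in the libraries from 20K nuclei. In the libraries of lower labelled depth and in those amplified with 10, 12 or 14 cycles, it lay between 0 and 2.48%. Of the 578 regions of the 10M libraries, 45.0% and 64.4% had a domain in the 5M libraries, 31.1% on average in the 2M libraries and 34.1% on average in the 14-cycle libraries. The share was 10.2% and 16.4% in the eChIP libraries, 8.30% and 16.8% in those from 100K nuclei and 34.8% and 52.9% in the CUT&Tag libraries, and 44 regions (7.61%) had a domain in no other library. Over the 13231 shared regions the mean share was 98.6% in the 5M libraries and 98.0% in the eChIP libraries.

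**Figure D4:**
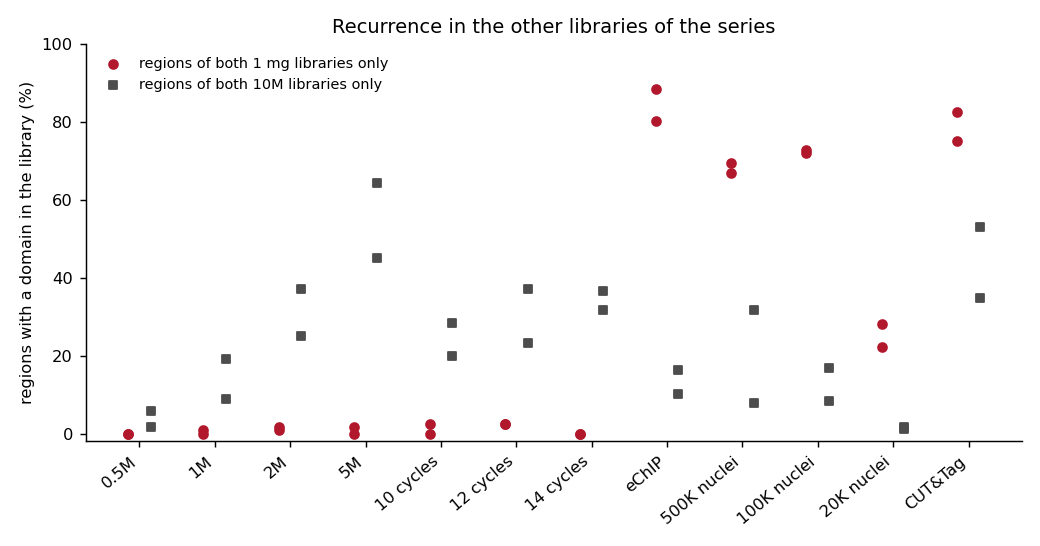
The x axis lists the 12 other groups of the series and the y axis gives the share of regions with a domain in each of their 2 libraries, for regions of both 1 mg libraries only (circles) and of both 10M libraries only (squares). The 1 mg regions reach 66.9% to 88.4% in the eChIP, 500K, 100K and CUT&Tag libraries and at most 2.48% in the depth and cycle libraries.

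The length called at the listed genes was followed through the series in the same way, inside the regions set by the 4 libraries compared. At the 15 jasmonate regions, domains filled 94.4% and 92.5% of the merged length in the 1 mg libraries and 55.2% and 52.5% in the 10M libraries. The 1 mg domains themselves set most of this length, so the libraries outside the comparison are given beside them. Their values were 84.8% and 88.8% in eChIP, 88.8% and 89.0% with 100K nuclei, 86.7% and 80.2% with 500K nuclei and 88.1% and 91.9% in CUT&Tag, against 49.8% and 48.3% in the 5M libraries and 45.2% to 51.5% in the cycle libraries. The 20K libraries, whose domains filled 60.4% and 62.8% of the length of all shared regions, covered 84.4% and 79.0% at the jasmonate genes. At the 36 light-reaction regions, the 1 mg libraries filled 83.7% and 82.6% and the 10M libraries 91.0% and 90.9%. There the 5M libraries filled 83.2% and 84.8% and the cycle libraries 78.5% to 83.4%, so values below the 10M libraries were not particular to the 1 mg libraries. The values were 79.9% and 80.2% in eChIP, 84.6% and 85.1% with 100K nuclei, 80.3% and 72.6% with 500K nuclei and 87.7% and 94.2% in CUT&Tag. Over all shared regions the values were 87.0% and 85.0% in the 1 mg libraries and 79.9% and 80.5% in the 10M libraries. The recovered depth of the 5M libraries was 45.8% and 53.9% of the 10M mean, below that of the 1 mg libraries, and the part of depth in these lengths was not tested.

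**Figure D5:**
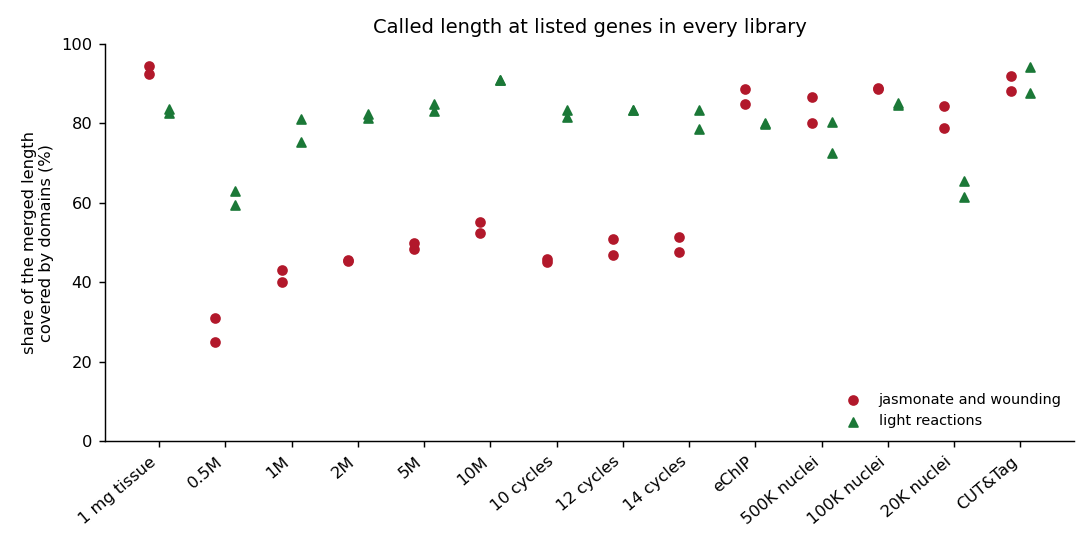
The y axis gives the share of the merged length covered by domains in each library, summed over the 15 jasmonate regions (circles) or the 36 light-reaction regions (triangles), and the x axis lists the 14 groups with 2 libraries each. At the jasmonate genes the 1 mg libraries lie at 94.4% and 92.5% and the 10M libraries at 55.2% and 52.5%, with no depth or cycle library above 55.2%.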

How the data were processed

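H3K9ac ChIP-seq domains of 2 libraries from 1 mg of seedling tissue and 2 PHILO 10M libraries were analysed on chromosomes 1 to 5. The authors aligned reads to TAIR10 with Bowtie2 and called domains in each library against a shared IgG control with epic2, a version of SICER (0.0.52 in the submitters' processing notes). The deposited counts are whole-number ChIP and IgG reads in each domain. The deposited log2 fold change is ChIP over IgG, each divided by its library size. The deposited FDR and p-value compare ChIP with IgG, and the deposited score is 100 times the log2 fold change. The p-value and the score were not used. Window, gap and duplicate settings are not given in the sources used here.

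Domains overlapping by at least 1 bp were merged, and the counts of a library were summed over each region. Regions with a domain in all 4 libraries were tested with edgeR 4.0.16 (quasi-likelihood, TMM, R 4.3.3) and Benjamini-Hochberg adjustment at 0.05, in all such regions and in those covered to at least 80% in every library. The fit was tested on simulated counts. Recovered depth is the library size ratio that the deposited fold change implies, set against the 10M mean. A gene was linked to a region holding its annotated start, and the link by gene body was chosen after seeing the data. DESeq2 1.42.0, other scalings, offsets for called length and GC, stricter domains, a replicate block, single libraries left out and the 5M libraries were the alternatives. The regions named were the 10 highest and 10 lowest well-covered ones with a gene start, called in both tests with CPM that did not overlap, up to 4 members with the smallest p of each list, and the 10 regions of 1 group only with the most reads and the 3 widest of each position class, from which a selection is given. Other named genes were chosen after their values were seen. The members and gene lists were chosen with earlier results of these data known. Promoter sequences were read from RefSeq TAIR10.1, whose chromosome lengths equal those of TAIR10.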

Additional observations from a re-analysis of the deposited data

How the results depend on the processing

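In all shared regions the number called was 3624, and it moved by more than 1.5 times under the offset for called length (106) and without 10M replicate 1 or 10M replicate 2 (range with 1 library left out, 2088 to 3624). DESeq2 gave 2578 and the 5M libraries in place of the 10M libraries 3139, of which 1769 were called in both comparisons. In well-covered regions the number was 2031, against 936 with DESeq2, 3574 of 12050 regions when coverage of 50% sufficed and 512 of 2129 regions with identical borders. With 1 library left out it was 1459 to 1592. The cause of these shifts was not tested, except that the coverage of 50% and the identical borders change the number of regions tested. Scalings changed the split of calls as given above. The deviations of same-numbered libraries from their groups had a correlation of -0.02. This is a single value for both pairs, since 2 libraries of a group deviate by opposite amounts. A replicate block gave 3726 and 1965 calls. Regions of the 1 mg libraries only numbered 121, against 72 when an FDR of at most 1e-10 was required, 239 with the 5M libraries as the other group and 138 to 235 with 1 library left out. Regions of the 10M libraries only numbered 578, against 243 in the 5M libraries and 648 to 942 with 1 library left out. The mean of the summed ChIP reads differed by -2651785 between the 1 mg and the 10M libraries and by 826533.5 between the 1 mg and the 5M libraries. The 20 named well-covered regions kept their direction in the alternatives of the well-covered test, with the call kept in 299 values and lost in 1, at AT1G54217. Identical borders gave a value for 1 of the 20 and the 5M libraries for 8. With the offset for called length, read for these regions after seeing the data, 6 of the 20 were called and 0 changed direction. The part of depth in the domains found in 1 group only was not tested, and a domain under the caller's threshold is listed nowhere.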

Other observations

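When genes were linked by any overlap of the gene body, a link chosen after seeing the data, the light-reaction genes lay in 46 regions with 43 called lower and 0 higher in the 1 mg libraries, and the jasmonate genes in 18 regions with 16 called higher and 0 lower. Auxin response genes then lay in 10 regions, with 3 called higher and 4 lower, against 3 higher and 0 lower of 5 by the start, so the direction of that list depended on the link. Cold and abscisic acid genes lay in 9 regions by the body, with 3 called higher and 3 lower, against 3 higher and 1 lower of 4 by the start, and clock genes in 14 regions with 2 higher and 6 lower.

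Regions of 1 group only that lay inside a gene without its start differed in their distance from it. The nearest border was within 200 bp of the start in 14 of 37 regions of the 1 mg libraries and in 242 of 446 regions of the 10M libraries, and it was beyond 1000 bp in 14 and 59. In shared regions of this class 81.6% began within 200 bp. The values are given without a test.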
